A study of Mus musculus with 10 samples.

Results

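Forkhead (Fox) genes encode transcription factors that share a winged-helix DNA-binding domain, and they were compared between the epithelium of the palatal and the buccal side of the mouse gingiva, or gum. A gene was a member when its symbol was Fox, then a letter from a to s, then digits with at most 1 final letter, and when its counts were not blank. This gave 45 members among 49164 genes with counts. Polyadenylated RNA came from gingival epithelium loosened with the protease Dispase and lifted off under a microscope. There were 5 palatal libraries (25868777 to 35583168 counts) and 5 buccal libraries (29317011 to 37234192 counts), and genotype, strain, age, treatment, microbial status and any pooling of mice are not given in the labels of either group. The series' design text speaks of samples pooled from specific-pathogen-free or germ-free mice, and whether that applies to these 10 libraries is unknown. Whether each library is a different animal is not stated, and the p-values therefore describe the spread of these 10 samples, which may be technical.

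Forkhead factors bind DNA through a helix that fits a core resembling TGTTTAC. Some of them open chromatin early in a lineage, as Foxa1 does in endodermal and glandular epithelia. Others carry signals into the nucleus: the Foxo proteins are held in the cytoplasm when insulin or growth factor signalling activates the kinase AKT. In stratified epithelia Foxn1, the gene mutated in nude mice, drives keratinocyte and hair differentiation, Foxq1 shapes the hair shaft, and Foxe1 is needed in mice for closure of the palate. Foxm1 drives the genes of mitosis, and Foxp3 defines regulatory T cells.

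In the palatal epithelium Foxn1 and Foxe1 were 1.98-fold and 1.86-fold higher than in the buccal epithelium, and Foxc1, Foxq1 and Foxm1 were lower, with buccal levels 2.62-fold, 1.56-fold and 1.54-fold those of palatal. The widely expressed Foxo3, Foxo1, Foxp1 and Foxn2 rose by smaller amounts, with log2 fold changes between 0.25 and 0.44. At low levels, Foxa1 was higher in palatal and Foxp3 lower. In bulk RNA, fewer cells of a type and less RNA per cell cannot be told apart, here and for every result that follows. Of the 45 members, 20 passed the filter on low counts, and 13 of these had an adjusted p under 0.05 (quasi-likelihood test of edgeR, Benjamini-Hochberg over 14062 genes), 8 higher and 5 lower in palatal. In this comparison 38.9% of all tested genes passed, 18.7% higher and 20.3% lower. The median log2 fold change was 0.05 over the tested members, beside 0.01 over all tested genes. The median of its size was 0.32 over those members and 0.22 over all tested genes. For 10 members the palatal and buccal libraries did not overlap, which held for 28.3% of all tested genes. Of the 13, 3 also changed at least 2-fold (Foxa1, Foxc1 and Foxp3), as did 10.2% of all tested genes. A test against a fold of 1.5 left 4 members, Foxa1, Foxn1, Foxc1 and Foxp3, with 10.6% of all tested genes passing it.

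**Figure D1:**
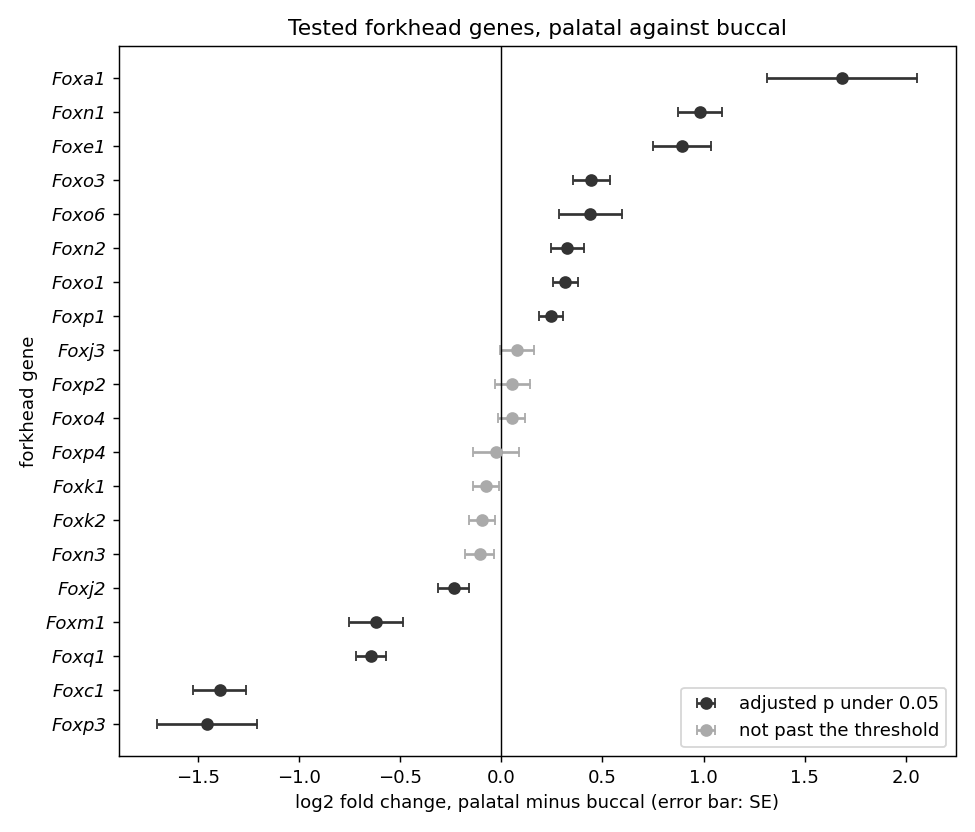
Log2 fold change (horizontal axis, palatal minus buccal) of the 20 tested forkhead genes, with bars for the SE and dark points for adjusted p under 0.05. Foxa1 stands at 1.69 and Foxp3 at -1.46, and the 7 grey genes lie between -0.11 and 0.08.

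Upstream sequence is shown for the members that moved with a relative or a neighbour: Foxc1, which fell with the nearby Foxq1, and Foxo1 and Foxo3, which both rose. Sequences are RefSeq's on GRCm38.p6, a different build from the GRCm39 of the counts, and 28 of the 45 members matched the table, Foxq1 and Foxe1 not among them. The bases run 5′ to 3′ and stop before the gene's first exon base in GENCODE. Capitals mark CCAAT or its reverse complement ATTGG, the box bound by the factor NF-Y.
Foxc1, chr13:31806396-31806632, plus strand: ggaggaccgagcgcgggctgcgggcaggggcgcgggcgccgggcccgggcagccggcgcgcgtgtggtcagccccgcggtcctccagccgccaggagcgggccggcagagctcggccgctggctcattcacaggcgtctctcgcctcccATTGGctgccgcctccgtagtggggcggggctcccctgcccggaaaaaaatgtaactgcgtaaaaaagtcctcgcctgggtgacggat
Foxo1, chr3:52268087-52268335, plus strand: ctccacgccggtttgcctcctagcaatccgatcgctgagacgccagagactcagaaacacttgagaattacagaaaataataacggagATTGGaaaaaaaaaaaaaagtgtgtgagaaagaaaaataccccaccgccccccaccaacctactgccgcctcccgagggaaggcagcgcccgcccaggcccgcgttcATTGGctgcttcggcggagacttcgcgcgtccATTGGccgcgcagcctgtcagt
Foxo3, chr10:42276756-42276945, minus strand: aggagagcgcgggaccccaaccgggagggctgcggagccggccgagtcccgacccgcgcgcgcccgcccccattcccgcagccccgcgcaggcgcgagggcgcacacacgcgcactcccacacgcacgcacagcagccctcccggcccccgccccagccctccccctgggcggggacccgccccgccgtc
The Foxo1 stretch holds 3 such boxes, the Foxc1 stretch 1 and the Foxo3 stretch 0. Over the 250 bases before the start, 33.8% of all 32851 promoters in the table hold a CCAAT box on either strand. The stretches also differ in base composition, with 72.6% G and C for Foxc1, 55.8% for Foxo1 and 81.6% for Foxo3.

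A forkhead core, TGTTTAC or its reverse complement GTAAACA, was also searched in those 250 bases; neither motif contains the other. It is present in 3.17% of all promoters in the table. Among the 33 promoters of forkhead members it occurs in 1, that of Foxa1, and its place is shown because Foxa1 had the largest rise of any tested member.
Foxa1, chr12:57546235-57546263, minus strand, GRCm38.p6, core in capitals: tatactgctttGTAAACAaagtgagggcc
This start of Foxa1 lies inside the span of a longer RefSeq gene model, and a match describes only these letters.

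Foxn1 and Foxe1, regulators of stratified epithelia, had the largest rises after Foxa1. Foxn1 (ENSMUSG00000002057) stood at 67.3, 66.1, 61.3, 49.5 and 53.6 CPM (counts scaled to the library's total, TMM-adjusted) in palatal libraries 1 to 5, against 32.3, 27.9, 23.7, 31.4 and 35.5 CPM in the buccal ones. The lowest palatal library was above the highest buccal one. The log2 fold change was 0.98 ± 0.11 (SE, n = 5 per side; edgeR adjusted p = 6.23e-06), and 10.7% of tested genes differed by at least as much in either direction. Foxe1 (ENSMUSG00000070990) stood at 105, 106, 91.2, 80.7 and 76.7 CPM in palatal libraries, against 68.5, 40.4, 41.7, 45.4 and 51.5 CPM in buccal libraries. The sides did not overlap, although buccal library 1 came nearest to the palatal values. The change was 0.89 ± 0.14 (edgeR adjusted p = 2.37e-04).

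Foxc1 and Foxq1 moved the other way. Foxc1 (ENSMUSG00000050295), a factor of eye and mesenchyme development that in mouse skin also keeps hair follicle stem cells quiescent, stood at 8.48, 14.9, 13.0, 11.7 and 15.4 CPM in palatal libraries, against 35.1, 30.8, 31.9, 37.8 and 31.2 CPM in buccal libraries. Every buccal library was above every palatal one, and palatal library 1 was the lowest. The log2 fold change was -1.39 ± 0.13 (SE, n = 5 per side; edgeR adjusted p = 1.32e-06), a size reached by 6.62% of tested genes. Foxq1 (ENSMUSG00000038415) stood at 30.8, 34.7, 35.4, 39.3 and 39.7 CPM in palatal libraries, against 58.1, 54.7, 54.2, 56.8 and 57.1 CPM in buccal libraries. Its buccal levels lay within a narrow band, with a coefficient of variation of 2.98%. The change was -0.64 ± 0.07 (edgeR adjusted p = 5.55e-06).

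In RefSeq's annotation Foxq1, Foxf2 and Foxc1 are consecutive protein-coding genes on chromosome 13, so the pair that fell are neighbours with 1 gene between them. That gene, Foxf2, a mesenchymal factor needed in mice for palate formation, totalled 30 counts in palatal and 41 in buccal libraries and was not tested. The next protein-coding gene after Foxc1 is Gmds, of GDP-fucose synthesis, which also fell, by 0.74 ± 0.16 on the log2 scale, at 2.33 CPM in palatal and 3.91 CPM in buccal libraries (edgeR adjusted p = 0.00222). The other forkhead trio, Foxf1, Foxc2 and Foxl1 on chromosome 8, had at most 4 counts over either side each.

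**Figure D2:**
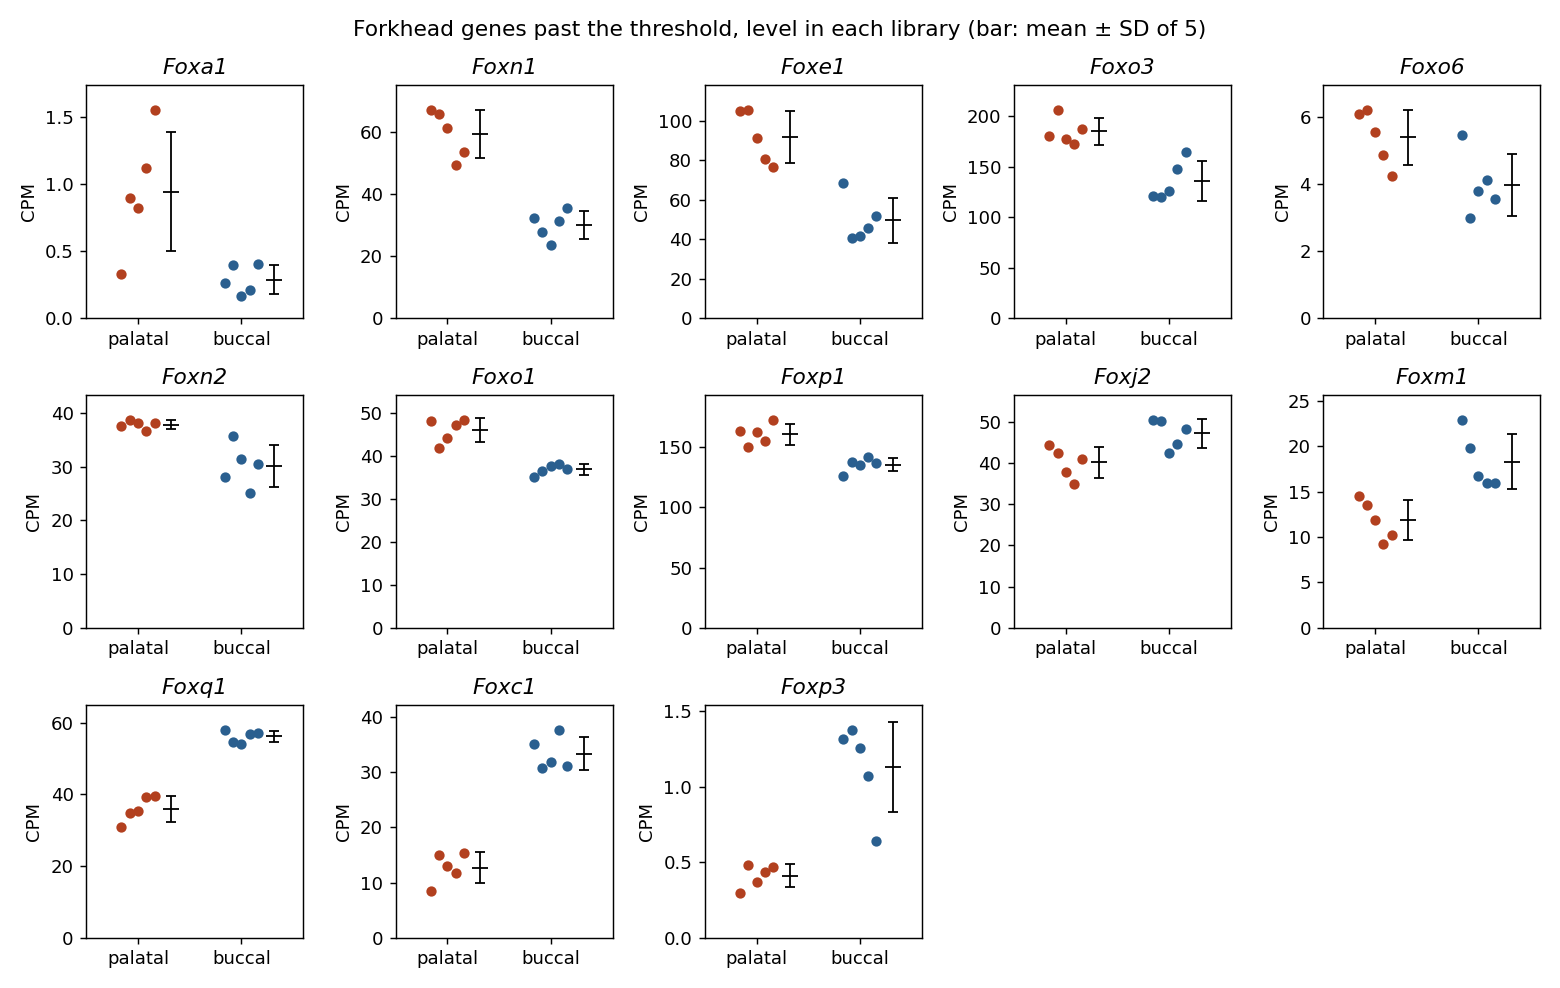
Level in CPM (vertical axis, from 0) of the 13 forkhead genes past the threshold, with a point for each of 5 palatal and 5 buccal libraries and a bar for the mean ± SD. The sides overlap for Foxa1, Foxo6 and Foxj2 and are separate for the other 10.

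Among the Foxo genes, 3 of 4 rose, beside 18.7% of all tested genes, and the call of Foxo6 was not stable. Foxo3 (ENSMUSG00000048756) stood at 181, 206, 178, 172 and 188 CPM in palatal libraries, against 120.4, 120.3, 126, 148 and 165 CPM in buccal libraries. The sides were separate, with the highest buccal library close below the lowest palatal one, and the change was 0.44 ± 0.09 on the log2 scale (SE, n = 5 per side; edgeR adjusted p = 0.00131). Foxo1 (ENSMUSG00000044167) stood at 48.1, 41.9, 44.3, 47.2 and 48.5 CPM in palatal libraries, against 35.1, 36.6, 37.8, 38.1 and 36.9 CPM in buccal libraries. These sides were also separate, with a change of 0.32 ± 0.06 (edgeR adjusted p = 7.27e-04). Foxo6, best known from the brain, averaged 5.40 ± 0.834 CPM in palatal and 3.99 ± 0.925 CPM in buccal libraries (SD, n = 5 each), with buccal library 1 inside the palatal range. Its change of 0.44 ± 0.16 (edgeR adjusted p = 0.0359) was lost when any of 7 single libraries was left out (adjusted p up to 0.0853) and, with number 2 left out on both sides, stood at 0.30 (adjusted p = 0.156). Foxo4 averaged 36.8 ± 2.00 CPM in palatal and 35.5 ± 2.52 CPM in buccal libraries and did not pass (0.05 ± 0.07; edgeR adjusted p = 0.570).

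Genes that sit around the Foxo proteins were counted from lists of their inputs and of target genes known from other tissues. Of 23 genes of the PI3K-AKT input and of Foxo regulation, 3 rose and 2 fell, which is 21.7% of the list beside 38.9% of all tested genes, and the list's median was 0.05 on the log2 scale. Irs1, an insulin receptor adaptor, rose by 0.73 ± 0.17 and the AKT-related kinase gene Sgk1 by 0.42 ± 0.13, whereas Skp2, whose product marks Foxo1 for degradation, fell by 0.45 ± 0.15 (edgeR adjusted p from 0.00392 for Irs1 to 0.0284 for Skp2). Akt1 and Akt2 stood at -0.11 ± 0.07 and -0.0019 ± 0.062. Of 20 Foxo target genes, 5 rose and 1 fell, with a median of 0.01, and the share that passed was 30%, also below that of all tested genes. The growth arrest gene Gadd45a, the ubiquitin ligase gene Fbxo32 and the thioredoxin inhibitor gene Txnip rose by 0.90 ± 0.09, 0.88 ± 0.10 and 0.75 ± 0.10 (edgeR adjusted p from 2.85e-06 to 3.23e-05). Pdk4, a brake on pyruvate oxidation, fell by 1.95 ± 0.17, with 4.12 CPM in palatal and 15.9 CPM in buccal libraries (edgeR adjusted p = 4.17e-07). The counts of the input list moved with several settings, from 1 to 5 higher and from 1 to 4 lower among those in which any gene of the list passed. Leaving out palatal library 2 gave 5 higher, leaving out palatal library 1, 3 or 4 or buccal library 2 gave 1 lower, and leaving out buccal library 1 gave 4 lower.

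Foxm1 (ENSMUSG00000001517) fell, as did most of the listed mitotic genes that it is known to drive. It stood at 14.5, 13.5, 11.9, 9.24 and 10.3 CPM in palatal libraries, against 22.9, 19.8, 16.8, 16 and 15.97 CPM in buccal libraries. The sides were separate, and the change was -0.62 ± 0.13 on the log2 scale (SE, n = 5 per side; edgeR adjusted p = 0.00182). Of 20 listed Foxm1 targets 18 fell and 1 rose, which is 95% of the list beside 38.9% of all tested genes. The list's median was -0.60 on the log2 scale. Top2a, which untangles chromosomes, the cyclin gene Ccnb1, the mitotic kinase gene Cdk1 and the centrosome kinase gene Aurka fell by 0.88 ± 0.09, 0.79 ± 0.09, 0.80 ± 0.10 and 0.84 ± 0.11 (edgeR adjusted p from 2.11e-06 to 1.88e-05). The member that rose was Cdc25b, a phosphatase of mitotic entry, by 0.40 ± 0.07 (edgeR adjusted p = 5.20e-04), and Cenpb stood at -0.06 ± 0.08. The part of Foxm1, or of the share of dividing cells, in the falls of the listed genes was not tested.

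**Figure D3:**
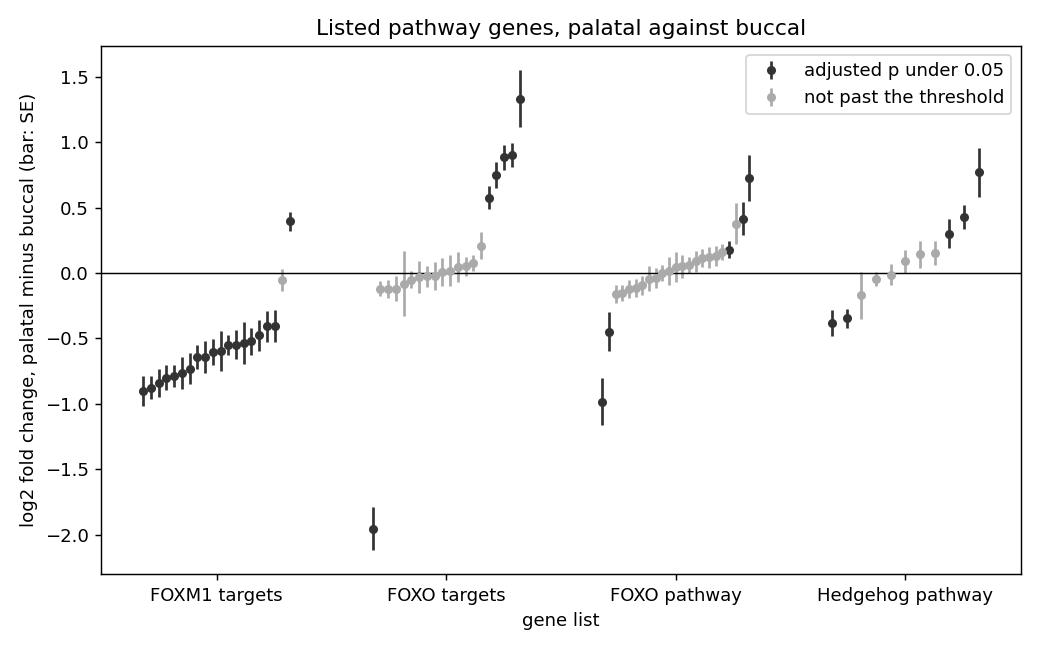
Log2 fold change (vertical axis, palatal minus buccal, bars for the SE) of each tested gene in 4 lists, ordered by value within a list, with dark points past the threshold. Of the Foxm1 targets 18 of 20 lie below 0 and past the threshold, while the Foxo and hedgehog lists spread to both sides of 0.

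Of the Foxp genes, repressors that act as dimers, 1 rose, 1 fell and 2 did not pass, where 38.9% of all tested genes passed. Foxp1, which in mouse skin also acts in hair follicle stem cells, stood at 163, 149.7, 162, 155 and 173 CPM in palatal libraries, against 126, 137, 135, 141 and 137 CPM in buccal libraries. The sides were separate although the change was small, at 0.25 ± 0.06 on the log2 scale (SE, n = 5 per side; edgeR adjusted p = 0.00439). Foxp2, known for its part in vocal learning, and Foxp4 stood at 0.05 ± 0.09 and -0.02 ± 0.11 (edgeR adjusted p = 0.662 and 0.892).

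Foxp3 (ENSMUSG00000039521) had 9, 15, 13, 11 and 13 counts in palatal libraries, against 41, 42, 39, 31 and 24 counts in buccal libraries. All buccal libraries were above all palatal ones, buccal library 5 being the lowest of its side. The log2 fold change was -1.46 ± 0.25 (SE, n = 5 per side; edgeR adjusted p = 2.71e-04). Of the 5 palatal libraries 4 reached the minimum level of the filter, and all 5 buccal ones did. Of 16 T and regulatory T cell markers 14 were tested, and 13 of them fell, a share of 92.9% beside 38.9% of all tested genes. Of the 14, 6 averaged less than the filter's minimum in palatal libraries and were tested through their higher buccal levels, as with Cd2 at 0.182 CPM in palatal and 1.123 CPM in buccal libraries, so the count of falls does not describe the list without that choice. The adhesion receptor gene Cd2, the checkpoint receptor gene Ctla4, the Helios gene Ikzf2 and the T cell receptor complex gene Cd3g fell by 2.57 ± 0.26, 2.52 ± 0.26, 0.73 ± 0.07 and 2.02 ± 0.26 on the log2 scale (edgeR adjusted p from 2.09e-06 to 2.27e-05). The summed level of the list was 38.3 to 43.4 CPM in palatal and 62.8 to 70.1 CPM in buccal libraries (exact two-sided permutation p = 0.00794, the smallest that 5 against 5 can give), of which 54.9% came from Ikzf2, and no listed marker was at 0. The part of these cells in the Foxp3 result was not tested.

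Foxa1 (ENSMUSG00000035451) had 10, 28, 29, 28 and 43 counts in palatal libraries, against 8, 12, 5, 6 and 15 counts in buccal libraries. In CPM, palatal library 1 at 0.331 lay within the buccal range of 0.161 to 0.399, and the other 4 palatal libraries lay above it. The log2 fold change was 1.69 ± 0.37 (SE, n = 5 per side; edgeR adjusted p = 0.00221). Foxa1 reached the filter's minimum in 4 palatal and 2 buccal libraries. The keratin genes of simple epithelium moved with it: Krt8, Krt18, Krt7 and Krt19 rose by 3.12 ± 0.27, 1.94 ± 0.31, 1.90 ± 0.28 and 1.79 ± 0.34 (edgeR adjusted p from 4.55e-07 to 9.74e-04). Palatal library 1, lowest for Foxa1, was also the lowest of its side for each of these 4 keratins, with 1.39 CPM of Krt19 against 2.87 to 4.98 CPM in the other palatal libraries. The gland mucin gene Muc5b ranged from 2.68 to 58.9 CPM in palatal and from 0.133 to 9.23 CPM in buccal libraries and did not pass (edgeR adjusted p = 0.0541).

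Of 12 simple and glandular epithelium markers 7 were tested, and 4 rose and 1 fell, a share of 71.4% beside 38.9% of all tested genes. The summed level was 75.1 to 143.9 CPM in palatal and 73.0 to 87.6 CPM in buccal libraries (exact two-sided permutation p = 0.0873). Of this sum 72.0% came from Slc12a2, a chloride transporter gene that also stands in the ionocyte list, and without it the sum was 15.6 to 80.8 CPM in palatal and 3.49 to 17.1 CPM in buccal libraries. The gland gene Prol1 was at 0 in all libraries. The part of gland or junctional cells in the Foxa1 result was not tested. Without palatal library 1 the summed level passed (exact permutation p = 0.00794). Foxa2, a relative of Foxa1 in endoderm, had 0, 2, 4, 0 and 5 counts in palatal libraries and 0 in all buccal ones. With the buccal group set to its floor of 3 counts, the palatal level was 3.89-fold higher. That floor covers counting error of the buccal side only, and the palatal counts were taken as they stand. The value is therefore not a lower bound on the difference. Foxa2 was not tested with the filter in place.

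**Figure D4:**
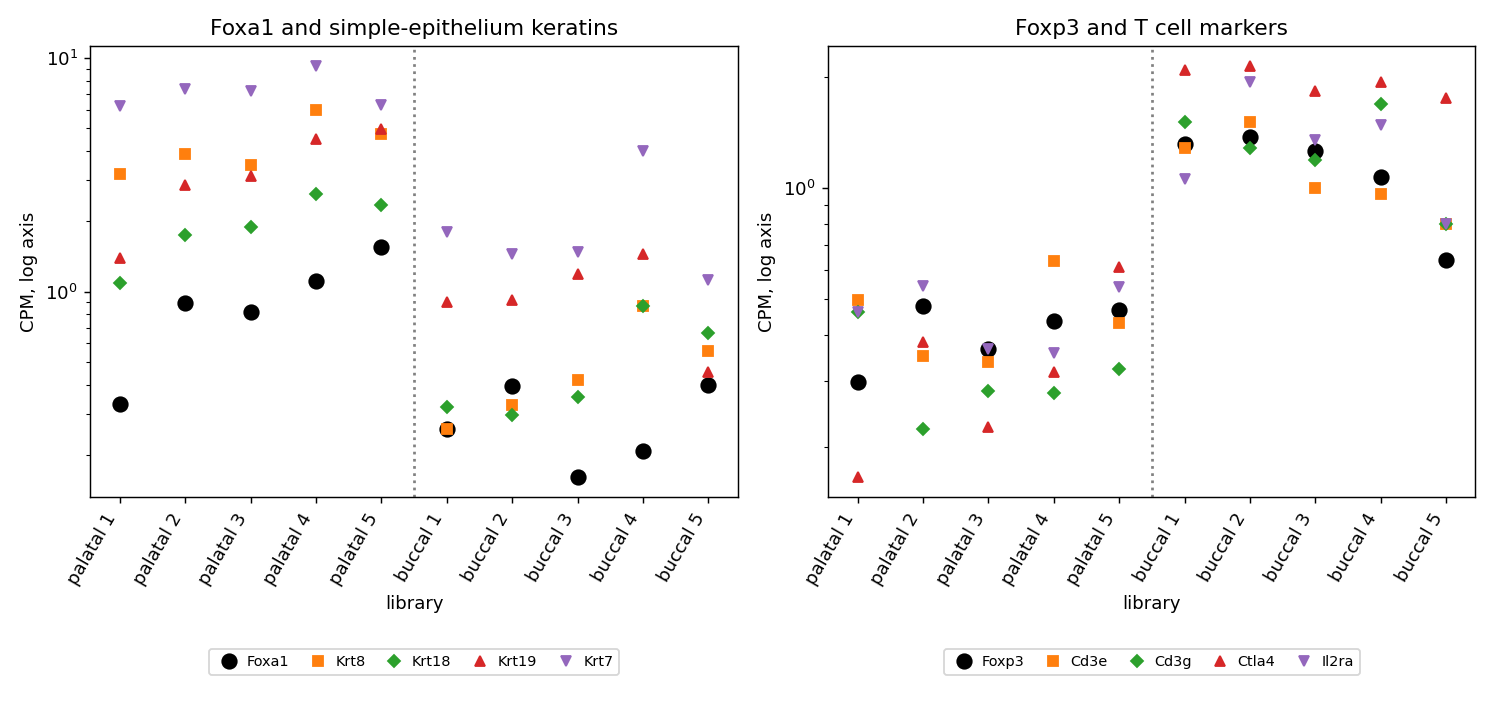
Level in CPM (vertical log axis) in each library of Foxa1 with 4 simple-epithelium keratin genes on the left, and of Foxp3 with 4 T cell genes on the right; a dotted line separates palatal from buccal libraries. Foxa1 in palatal library 1 sits at 0.331 CPM among the buccal values, while Foxp3 stands below 0.5 CPM in every palatal library and above 0.6 CPM in every buccal one.

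The remaining members that passed are broadly expressed factors. Foxn2 (ENSMUSG00000034998) stood at 37.6, 38.7, 38.1, 36.6 and 38.0 CPM in palatal libraries, against 28.1, 35.7, 31.4, 25.1 and 30.5 CPM in buccal libraries. The palatal libraries were close together and the buccal ones spread over a wider range below them (0.33 ± 0.08 on the log2 scale; edgeR adjusted p = 0.00535). Foxj2 averaged 40.2 ± 3.75 CPM in palatal and 47.2 ± 3.53 CPM in buccal libraries (SD, n = 5 each), with overlapping sides. Its change of -0.23 ± 0.08 (edgeR adjusted p = 0.0256) did not pass when palatal library 3 or 4 or buccal library 1 or 2 was left out (adjusted p from 0.0523 to 0.0736).

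Of the 20 tested members, 7 did not pass. The related Foxk1 and Foxk2, which regulate autophagy and glucose use, stood at -0.08 ± 0.06 and -0.10 ± 0.06 on the log2 scale (edgeR adjusted p = 0.384 and 0.257). Foxn3, a checkpoint factor, stood at -0.11 ± 0.07 and Foxj3 at 0.08 ± 0.08 (edgeR adjusted p = 0.277 and 0.510). Their levels were not low: Foxk1 averaged 116.8 ± 6.26 CPM in palatal and 123 ± 8.23 CPM in buccal libraries (SD, n = 5 each).

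Levels were compared between members after counts were divided by the merged exon length of each gene in GENCODE. That length joins the exons of all transcripts of a gene, on GRCm38 rather than the GRCm39 of the counts. It can exceed the length of the transcript present, so the order of members is approximate. Foxe1 had the highest level in palatal libraries, at 32.8 ± 4.78 CPM per kilobase, ahead of Foxo3 at 24.4 ± 1.74, Foxn1 at 18.5 ± 2.42 and Foxk1 at 15.4 ± 0.825 (SD, n = 5). In buccal libraries Foxo3 and Foxe1 were level with each other, at 17.95 ± 2.60 and 17.7 ± 4.08 CPM per kilobase, followed by Foxk1 at 16.2 ± 1.09 and Foxq1 at 11.6 ± 0.345, and these first 3 overlapped in range. Foxn1 took rank 3 in palatal and rank 9 in buccal libraries, and Foxq1 rank 10 in palatal and rank 4 in buccal libraries. In palatal libraries Foxn1 and Foxk1 overlapped in range, as did Foxp1 with Foxo4 and Foxp4, and Foxp4 with both Foxo4 and Foxk2. The order within these groups is therefore not resolved. Palatal Foxq1 overlapped in range with Foxp4, Foxk2, Foxj2 and Foxn3, and buccal Foxn1 with Foxo4, Foxp4, Foxp1, Foxk2, Foxj2 and Foxn3, so those lower ranks are not resolved either. Buccal Foxq1, at 11.2 to 12.0 CPM per kilobase, lay within the range of Foxp4, so its rank 4 is not resolved from Foxp4. Foxa1 and Foxp3 were the lowest tested members on both sides, at 0.283 and 0.0896 CPM per kilobase in palatal and 0.0853 and 0.248 in buccal libraries.

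**Figure D5:**
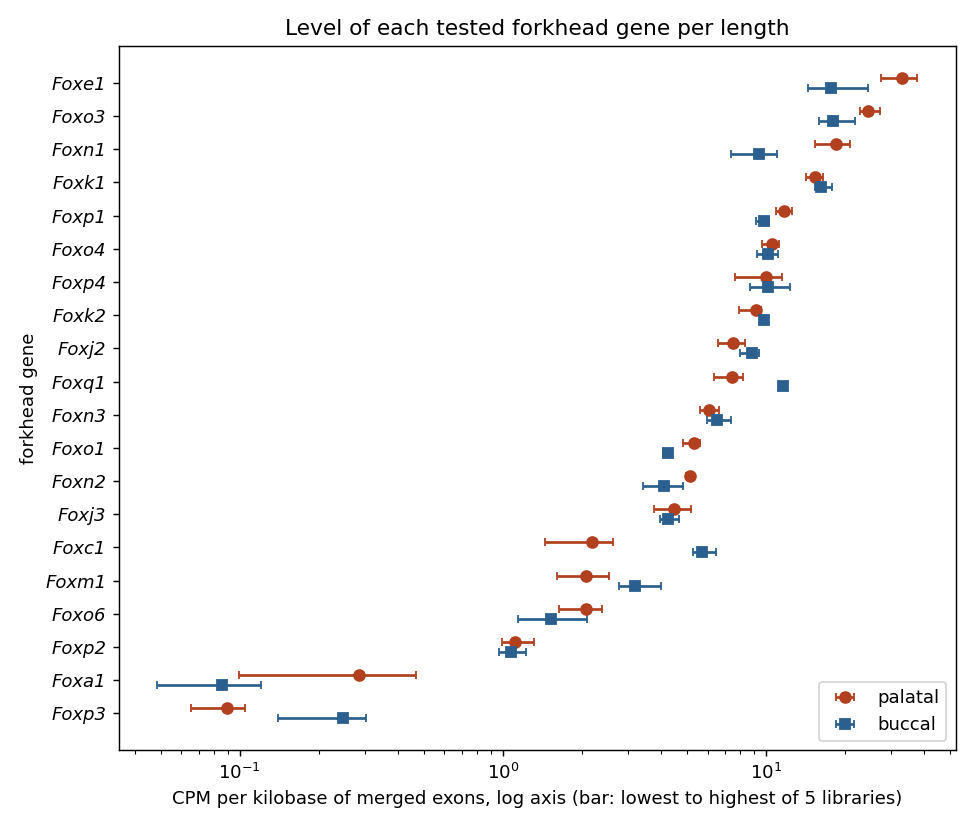
Mean level in CPM per kilobase of merged exons (horizontal log axis) of the 20 tested forkhead genes, palatal above buccal, with bars from the lowest to the highest of 5 libraries. Foxe1 and Foxn1 lie to the right in palatal, Foxq1 and Foxc1 to the right in buccal libraries.

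The other 25 members were not tested, and together they held 175 counts, beside 317342 counts for the tested ones. There were 10 with 0 counts in every library, namely Foxb2, Foxd3, Foxd4, Foxe3, Foxh1, Foxi1, Foxi2, Foxi3, Foxn4 and Foxr2. A further 10 had 1 to 8 counts in all: Foxa3, Foxb1, Foxc2, Foxd1, Foxd2, Foxf1, Foxl1, Foxl3, Foxr1 and Foxs1. The others with counts included Foxf2, Foxa2, Foxj1 (8 counts over palatal and 17 over buccal libraries) and the ovary gene Foxl2 (9 over palatal and 6 over buccal). At this depth these transcripts were at or near the limit of detection. The opposite-strand genes Foxl2os, Foxo6os and Foxd2os had at most 3 counts in a library. Foxl2os totalled 9 counts in palatal and 4 in buccal libraries, close to those of Foxl2 itself, and Foxd2os totalled 1 in palatal and 3 in buccal libraries, beside 1 and 7 for Foxd2. The strand setting of the counting is not given, so these low counts cannot be divided between a gene and its opposite-strand partner. Foxo6os, with 0 counts in palatal and 9 in buccal libraries, is small beside Foxo6, with 816 in palatal and 632 in buccal libraries.

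Several of these untested members mark other cell types, whose markers were summed. Ionocytes, which Foxi1 specifies, were represented by 10 markers, of which 6 were tested and 1 fell. Sums were 114.7 to 125.3 CPM in palatal and 125 to 141 CPM in buccal libraries, a slight overlap (exact two-sided permutation p = 0.0159). Slc12a2, the marker that fell, gave 53.5% of the sum. Without Slc12a2 the sides overlapped more widely, at 53.8 to 62.1 CPM in palatal and 55.5 to 68.1 CPM in buccal libraries. Of 14 markers of multiciliated cells, which need Foxj1, 2 were tested and 1, the dynein gene Dnai1, rose by 3.11 ± 0.42, while the other, Rsph1, stood at -0.66 ± 0.31 (edgeR adjusted p = 0.110). Dnai1 averaged 0.796 CPM in palatal and 0.093 CPM in buccal libraries, under the filter's minimum in buccal, so it was tested through the side where it is high. The sum was 1.63 to 2.19 CPM in palatal and 0.639 to 1.71 CPM in buccal libraries (exact permutation p = 0.0159). With 1 library left out the sums differed by 0.576 to 0.850 CPM, about the gap between the Dnai1 means. The sum was not taken without Dnai1, so it does not describe the list apart from that gene. The cell type's master genes Mcidas and Gmnc had 1 or 2 counts in all. Of 12 neural crest derivative markers, a lineage that starts with Foxd3, 4 were tested and 0 passed in edgeR, where 1 had an unadjusted p under 0.05, and DESeq2 and limma-voom also called 0. A fit with the library number as a block called 1. Their sum was 159 to 198 CPM in palatal and 164 to 188 CPM in buccal libraries (exact permutation p = 0.722), 93.4% of it from Erbb3. Of 12 endothelial markers 5 were tested, 2 rose, both averaging less than the filter's minimum in buccal libraries, and 1 fell. Their sum was 5.47 to 10.4 CPM in palatal and 5.79 to 9.66 CPM in buccal libraries (exact permutation p = 0.619). Of the tested ionocyte, multiciliated, neural crest and endothelial markers, 16.7%, 50%, 0% and 60% passed, beside 38.9% of all tested genes.

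Fibroblast and mesenchyme genes matter for Foxc1, Foxf1 and Foxf2, which are strong in mesenchyme. Of 16 such markers 9 were tested, and 4 rose and 0 fell. That share of 44.4% is near the 38.9% of all tested genes and so no result about the list. The summed level of the 16 markers was 102 to 116 CPM in palatal and 29.7 to 36.4 CPM in buccal libraries (exact two-sided permutation p = 0.00794). Of this sum 56.5% came from Dcn, and without Dcn it was 31.4 to 37.5 CPM in palatal and 25.8 to 30.5 CPM in buccal libraries. The matrix gene Dcn rose by 3.47 ± 0.17 and the mesenchymal regulator gene Prrx1 by 0.64 ± 0.12, while the main fibroblast collagen genes Col1a1 and Col1a2 stood at -0.34 ± 0.30 and 0.22 ± 0.29 on the log2 scale. The part of these cells in the forkhead results was not tested. Of 12 skeletal muscle markers 7 were tested, 3 of them with palatal averages under the filter's minimum. Of these 7, 4 fell, a share of 57.1% beside 38.9% of all tested genes. The list's sum, with Myod1 at 0, was 4.51 to 9.12 CPM in palatal and 6.69 to 17.1 CPM in buccal libraries (exact permutation p = 0.0238). The sum missed the threshold when palatal library 1, 2, 3 or 5 was left out (exact permutation p = 0.0556 each). The 14 stratified epithelium markers were all tested and had the highest sum of the marker lists in every library, with 117100 to 127400 CPM in palatal and 134400 to 153900 CPM in buccal libraries. Of these 14 markers 7 rose and 3 fell, a share of 71.4% beside 38.9% of all tested genes. The keratin gene Krt76 rose by 4.24 ± 0.11 and Krt4 fell by 2.07 ± 0.12. The basal keratin gene Krt5 and the keratinocyte regulator gene Trp63 stood at -0.06 ± 0.09 and 0.13 ± 0.10 on the log2 scale.

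Hedgehog signalling, which sets the Foxf and Foxl genes in the mesenchyme under developing epithelia, was read from 16 genes. Of the 11 tested, 3 rose and 2 fell, a share of 45.5% that is near the 38.9% of all tested genes and so no result about the list, and the median was 0.09 on the log2 scale. The transcriptional effector genes Gli1 and Gli3 rose by 0.77 ± 0.19 and 0.43 ± 0.09, and the co-receptor gene Boc and the ligand release gene Disp1 fell by 0.35 ± 0.07 and 0.38 ± 0.10 (edgeR adjusted p from 0.00142 to 0.00715). The target receptor gene Ptch1 stood at 0.14 ± 0.10. The ligand gene Shh, untested at this level, had 1, 7, 10, 7 and 4 counts in palatal libraries and 0 in every buccal library.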

How the data were processed

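Counts were made by the authors and deposited as 1 raw count per gene and library; GRCm39, HTSeq 2.01, TopHat2 2.1.1, DESeq2 1.36.0 and cutadapt 2.10 are listed, without roles or order, in the submitters' processing notes. Per the file headers, the authors also deposited DESeq2-normalized values, a signal in which each library's counts are scaled by its own size factor, which was checked and not used further. Of 55414 genes 6250 had blank counts and were left out. The table has 0 columns of other samples. Totals were 25868777 to 35583168 counts in palatal and 29317011 to 37234192 in buccal libraries, and no 2 libraries within a side agreed within sampling noise (chi-square per degree of freedom 7.61 to 58.0).

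Libraries were grouped by the tissue label. Genes were kept by edgeR's filterByExpr (minimum count 10, here 0.334 CPM in 5 libraries), scaled by TMM and tested with edgeR 4.0.16's quasi-likelihood F-test (robust, two-sided) in R 4.3.3, with Benjamini-Hochberg adjustment at 0.05. Fold changes are palatal minus buccal, with SE taken from the F statistic (size of the fold change over root F). CPM uses TMM-scaled library sizes. In simulated palatal and buccal counts (13925 genes, 200 of them changed) it recovered 74.6%, 92.5% and 100% of genes changed 1.5-fold, 2-fold and 4-fold, with 13 false calls (6.81% of calls). Alternatives were other scalings and filters, DESeq2 1.42.0, limma-voom (limma 3.58.1), a replicate block, leaving out libraries and stricter thresholds. The members and lists were chosen with earlier results of these data known. All called members were named with values, then the others, and up to 4 called genes per list by smallest p. Akt1, Akt2, Cdc25b, Cenpb, Col1a1, Col1a2, Erbb3, Gmds, Gmnc, Krt5, Mcidas, Muc5b, Prol1, Ptch1, Shh and Trp63 fall outside that rule and were named after their values were seen. The microbial status of these libraries, and whether any was pooled, is not given in the labels. Some genes of the family and lists are not reported here by name.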

Additional observations from a re-analysis of the deposited data

Results flagged for a closer look

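One member was flagged: the level of Foxk2 in palatal library 4, at 41.55 CPM, lay far below the other 4 palatal libraries (49.0 to 50.4 CPM), with a gap of more than 0.71 of the group's range. Of 40 groups of 5 libraries examined this was the 1 flagged, and chance flags about 1 in 20.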

How the results depend on the processing

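The calls of Foxc1, Foxn1, Foxa1 and Foxp3 held under every alternative in which they were tested (21, 21, 20 and 20 settings). With at least 1 CPM in 5 libraries Foxa1 and Foxp3 were not tested. Against a fold of 1.5, all genes called were 1491 (675 higher, 816 lower) and forkhead members 4 (2 higher, 2 lower); the Foxo inputs had 0 and 0, Foxo targets 3 higher, Foxm1 targets 0 higher and 4 lower, and hedgehog genes 0 and 0. Leaving out 1 library gave 11 to 13 forkhead calls, and 2 to 5 higher and 1 to 4 lower Foxo inputs. Foxo inputs had 1 higher and 4 lower with library-total scaling, 1 and 1 at a false discovery rate of 0.01, 5 higher with DESeq2, and 1 lower without number 2 on both sides. Library-total scaling gave 2 lower Foxo targets and lost Foxo6 (adjusted p = 0.0762). Without a filter 5 hedgehog genes were higher, and Foxa2 passed with 11 counts (edgeR adjusted p = 0.00865). With 1 library left out, Foxp2 ranged from -0.0068 (without palatal library 5) to 0.11 and Foxp4 from -0.075 to 0.061 (0.061 without either palatal library 4 or buccal library 1).

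Summed markers without number 2 on both sides differed (palatal minus buccal) by 0.379 CPM for endothelium, -13.7 for ionocytes, 0.728 for multiciliated cells, -1.64 for neural crest and -4.83 for muscle; neural crest stood at -2.20 with library-total scaling. Leaving out 1 library gave -1.33 to 0.00754 for endothelium (highest without buccal library 2), 15.8 to 33.0 for simple epithelium (highest and past the threshold without palatal library 1), -0.885 (without palatal library 5) to 8.84 for neural crest and -5.83 to -3.30 for muscle, which missed the threshold without palatal library 1, 2, 3 or 5. The causes were not tested.

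Whether the shared library numbers pair the samples is not settled by the values. Deviations of same-numbered libraries correlated at -0.02 to 0.33, 2 of 5 over 0.1, and those of other pairs at -0.32 to 0.23. Of 10 libraries, 5 correlated best with their own number. With the replicate block 5518 genes, 13 forkhead members and 1 neural crest marker (higher) passed.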
